A study of Homo sapiens with 8 samples.

Results

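The 10 genes of the YAP and TEAD pathway described here were taken by name from 61806 genes in the deposited count table. They are the coactivators YAP1 and WWTR1 (TAZ), the DNA-binding partners TEAD1 and TEAD3, and the target genes CCN1, CCN2, ANKRD1, AMOTL2, LATS2 and AJUBA. The genes were chosen by symbol, with earlier results of these data known, and all 10 had at least 15 reads in every library, enough to be tested. The mRNA came from N/TERT-1 cells, a line of human epidermal keratinocytes immortalized with telomerase, of WT genotype in every library. Cells of 4 libraries received ethanol, the solvent control, and cells of 4 libraries received O/A, a mixture of oligomycin (an inhibitor of the mitochondrial ATP synthase) and antimycin A (an inhibitor of respiratory complex III), for 4 hours. O/A depolarizes mitochondria and is used to induce mitophagy, and the comparison asks which of these genes changed in mRNA level under it in this single cell line.

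YAP and TAZ are transcriptional coactivators that bind no DNA themselves and act through the TEAD factors on promoters and enhancers. When the Hippo pathway is active, the MST kinases activate the LATS kinases, and LATS phosphorylates YAP and TAZ, which are then kept in the cytoplasm or degraded. In epidermis YAP is known for maintaining basal keratinocytes, and its activity responds to cell density, tension of the actin cytoskeleton and energy stress. That regulation acts largely on the YAP and TAZ proteins, which were not measured here.

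The libraries held between 17210404 and 20999927 counted reads, and the ranges of the conditions overlapped. Of all genes tested, 34.7% passed the call rule (adjusted p of at most 0.05 and an absolute log2(FC) above 0.25), and the median log2(FC) over all genes tested was -0.0004. The keratinocyte markers KRT5, KRT14, TP63, ITGA6 and COL17A1 were expressed in every library, with a summed level of 2710 to 2970 FPKM (the count scaled to gene length and library total) in ethanol and 2340 to 2490 in O/A. KRT5, a keratin of basal keratinocytes, fell with a log2(FC) of -0.30, and the other 4 keratinocyte markers did not pass the call rule. The summed level was at most 2.95 FPKM for 6 fibroblast markers, 0.66 for 4 melanocyte markers, 0.06 for 3 endothelial markers and 0.41 for 4 leukocyte markers. Of these, COL1A1 alone accounted for nearly all of the fibroblast sum and the melanocyte markers with no count in any library numbered 2. In bulk mRNA, fewer cells expressing a gene and less mRNA per cell cannot be told apart.

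CCN1 and CCN2, which encode the secreted matrix-associated proteins CYR61 and CTGF and are the most widely used readouts of YAP and TEAD activity, both fell in O/A. The falls were unequal, and CCN1 fell further than CCN2. ANKRD1, which encodes an ankyrin-repeat protein and is likewise a standard readout, moved the other way and rose from a very low level. LATS2 rose slightly, AJUBA fell by slightly less than the call rule required, and AMOTL2 did not pass the test. The mRNA levels of YAP1, WWTR1, TEAD1 and TEAD3 all stayed inside the fold threshold. In all, 4 of the 10 genes were called, a share close to the 34.7% of all genes tested, with 2 up (15.8% of all genes tested) and 2 down (18.9%).

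**Figure D1:**
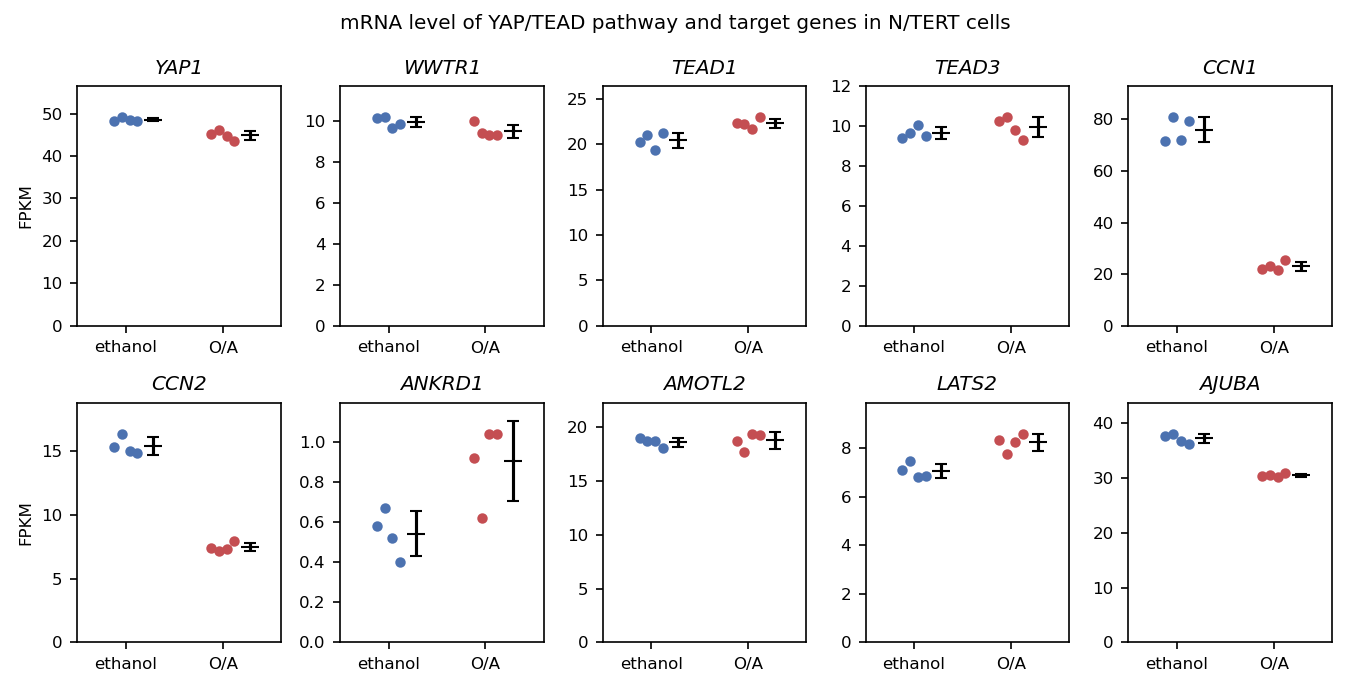
Expression of the 10 genes in each library, in FPKM on linear axes that start at 0, with 1 panel per gene. Points are the 4 ethanol and the 4 O/A libraries, and the bars are the mean and SD of each group. In the panels of CCN1 and CCN2 every O/A point lies far below every ethanol point, whereas in the panel of ANKRD1 the groups overlap.

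CCN1 lies on chromosome 1 from 85580761 to 85584589 on the plus strand of GRCh38. Its level in ethanol replicates 1 to 4 was 71.74, 80.82, 72.01 and 79.43 FPKM, and in O/A replicates 1 to 4 it was 22.04, 23.05, 21.63 and 25.72 FPKM. The highest O/A library was far below the lowest ethanol library. The mean was 76.0 ± 4.80 FPKM in ethanol and 23.1 ± 1.84 in O/A (SD, n = 4 each). The log2(FC) was -1.67 (standard error 0.066, 95% interval -1.83 to -1.52, adjusted p = 8.7e-08 in the quasi-likelihood test of edgeR, with Benjamini-Hochberg adjustment over all genes tested), which is a 3.19-fold lower level. These values rest on 4583 to 6168 reads of CCN1 for each library in ethanol and on 1442 to 1686 for each in O/A.

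CCN2 lies on chromosome 6 from 131948176 to 131951372 on the minus strand. It was at 15.31, 16.33, 15.01 and 14.79 FPKM in ethanol replicates 1 to 4 and at 7.42, 7.16, 7.35 and 7.94 FPKM in O/A replicates 1 to 4. Again no O/A library reached the lowest ethanol library, and the spread within each condition was small beside the gap between them. The mean went from 15.4 ± 0.681 to 7.47 ± 0.334 FPKM (SD, n = 4 each), a 1.99-fold lower level with a log2(FC) of -0.99 (standard error 0.057, 95% interval -1.11 to -0.88, adjusted p = 8.06e-21, edgeR's quasi-likelihood test). The antisense gene CCN2-AS1 overlaps CCN2 and held 1.95% as many reads as CCN2. Whether the counting used strand is not given in the sources used here, so reads of the pair cannot be told apart.

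The level of CCN1 relative to CCN2 differed between the conditions. The ratio of their FPKM was 4.95 ± 0.3 in ethanol and 3.09 ± 0.158 in O/A (SD, n = 4 each), and the highest ratio in O/A, 3.24, was below the lowest in ethanol, 4.69. A 2-sided exact permutation test gave p = 0.0286, the smallest value that 4 libraries against 4 allow, and 0.0857 after Benjamini-Hochberg adjustment over the 3 ratios compared, so the adjusted value missed 0.05.

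ANKRD1 lies on chromosome 10 from 90912096 to 90921087 on the minus strand. Its level was 0.58, 0.67, 0.52 and 0.40 FPKM in ethanol replicates 1 to 4 and 0.92, 0.62, 1.04 and 1.04 FPKM in O/A replicates 1 to 4. O/A replicates 1, 3 and 4 lay above all ethanol libraries, and O/A replicate 2 lay inside the ethanol range. The gene was the least expressed of the 10, with 15 to 21 reads for each library in ethanol and 21 to 36 in O/A. Its log2(FC) was 0.80 (standard error 0.24, 95% interval 0.31 to 1.29, adjusted p = 0.00475, edgeR's quasi-likelihood test), and the exact permutation test gave p = 0.0571. On the log2(FPKM + 1) scale, which understates changes of low genes, the log2(FC) was 0.30.

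The promoters of CCN2 and ANKRD1, which moved in opposite directions, are shown beside those of AMOTL2 and AJUBA, which stayed inside the fold threshold. Each sequence holds the 250 bases before a RefSeq transcription start, written 5′ to 3′ on the strand of the gene. Capitals mark the TEAD motif GGAATG on either strand. In ANKRD1 they also mark TGATTCA, a match to TGANTCA, a loose form of the AP-1 motif in which N is any base. The CCN2 window is chr6:131951373-131951622, that of ANKRD1 is chr10:90921088-90921337, that of the second listed start of AMOTL2 is chr3:134374448-134374697 and that of the second listed start of AJUBA is chr14:22976843-22977092. All are on the minus strand of GRCh38.p14.
CCN2: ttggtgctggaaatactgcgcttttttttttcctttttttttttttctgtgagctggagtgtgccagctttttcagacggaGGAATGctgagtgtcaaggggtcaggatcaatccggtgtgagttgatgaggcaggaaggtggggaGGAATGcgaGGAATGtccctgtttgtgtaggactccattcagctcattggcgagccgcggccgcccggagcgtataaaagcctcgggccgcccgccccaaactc
ANKRD1: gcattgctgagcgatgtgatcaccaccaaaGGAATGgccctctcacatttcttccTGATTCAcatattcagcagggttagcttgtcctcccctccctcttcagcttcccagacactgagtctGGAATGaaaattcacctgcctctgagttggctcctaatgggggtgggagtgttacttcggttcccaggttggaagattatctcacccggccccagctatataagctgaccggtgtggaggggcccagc
AMOTL2: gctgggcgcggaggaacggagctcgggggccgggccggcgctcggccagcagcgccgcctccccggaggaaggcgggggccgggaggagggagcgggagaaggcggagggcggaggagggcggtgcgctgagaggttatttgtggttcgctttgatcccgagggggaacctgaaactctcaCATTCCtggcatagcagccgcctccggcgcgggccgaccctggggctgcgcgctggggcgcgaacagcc
AJUBA: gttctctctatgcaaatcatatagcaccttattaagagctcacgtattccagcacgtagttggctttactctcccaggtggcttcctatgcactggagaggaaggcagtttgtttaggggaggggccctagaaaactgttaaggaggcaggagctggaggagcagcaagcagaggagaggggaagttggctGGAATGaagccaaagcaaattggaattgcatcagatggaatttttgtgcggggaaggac

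CCN2 held 3 TEAD motifs, 169, 104 and 95 bases before its start. Promoters with 3 or more were 29 of the 35116 promoters of the same length, or 0.0826%. ANKRD1 held 2 TEAD motifs, 220 and 128 bases before its start, and a match to the loose AP-1 motif 195 bases before it. Promoters with 2 or more TEAD motifs were 0.94% of all, and those with a match to the loose AP-1 motif were 6.57%. YAP1 held 1 TEAD motif 162 bases before its start, AMOTL2 held 1 at 69 bases and AJUBA held 1 at 59 bases, each of the latter at the second of 2 listed starts. At least 1 TEAD motif was present in 5 of the 11 windows of these genes (45.5%), against 11.9% of all promoters. Counted by gene among those with a window, using any listed start, it was present in 5 of 8 members (62.5%). It was present in 5 of 12 other YAP and TEAD targets (41.7%) and in 5 of 12 SRF and MRTF targets (41.7%). Genes with more listed starts have more chances of a match, and FHL2, CALD1 and ACTN1 of the SRF and MRTF targets have 4 each. The share over all genes counted this way was not computed, and the differences between these shares were not tested. The windows of WWTR1, TEAD3 and LATS2 do not hold these letters. The RefSeq promoter set used here held no entry for CCN1 or TEAD1, so their promoters were not examined. CCN2, which fell, and ANKRD1, which rose, were the members with more than 1 TEAD motif among the 8 with a window. A match describes the letters of a window and shows no binding.

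LATS2, a kinase that phosphorylates YAP and TAZ and is itself a YAP target, lies on chromosome 13 from 20973036 to 21061586. Its level was 7.10, 7.45, 6.82 and 6.85 FPKM in the ethanol replicates and 8.32, 7.76, 8.23 and 8.58 FPKM in the O/A replicates, and every O/A library lay above every ethanol library. The log2(FC) was 0.27 (95% interval 0.17 to 0.36, adjusted p = 2.85e-06, edgeR's quasi-likelihood test), just past the threshold of 0.25. It fell back inside the threshold without O/A replicate 4 (0.25 after rounding), with upper-quartile scaling (0.23), on the log2(FPKM + 0.1) scale (0.22) and on the log2(FPKM + 1) scale (0.20).

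AJUBA, a LIM-domain scaffold that binds and inhibits LATS, lies on chromosome 14 from 22971177 to 22982551. It was at 37.66, 38.03, 36.78 and 36.22 FPKM in the ethanol replicates and at 30.32, 30.55, 30.10 and 30.84 FPKM in the O/A replicates. The groups did not overlap and each was tight, yet the log2(FC) of -0.24 (95% interval -0.30 to -0.19, adjusted p = 1.53e-10, edgeR's quasi-likelihood test) was just inside the threshold. With upper-quartile scaling it was -0.27 and passed, as it did on the log2(FPKM + 0.1) scale at -0.29 and on the log2(FPKM + 1) scale at -0.28. LATS2 and AJUBA therefore sit on either side of the threshold by margins smaller than the choice of scaling.

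AMOTL2, an angiomotin that binds YAP and retains it outside the nucleus, lies on chromosome 3 from 134355347 to 134375479. Its level was 18.94, 18.67, 18.64 and 17.99 FPKM in the ethanol replicates and 18.68, 17.65, 19.35 and 19.27 FPKM in the O/A replicates, and the groups overlapped. The log2(FC) was 0.06, and its 95% interval ran from -0.0063 to 0.13.

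**Figure D2:**
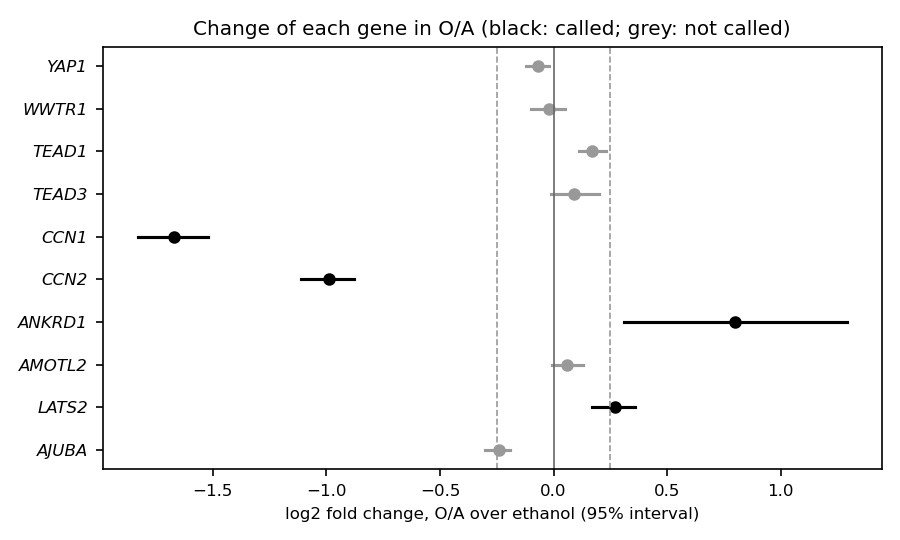
Log2(FC) of O/A over ethanol for the 10 genes, with horizontal lines for the 95% interval of the edgeR fit and dashed lines at the threshold of 0.25 on either side of 0. CCN1 at -1.67 and CCN2 at -0.99 lie far to the left, ANKRD1 at 0.80 has the widest interval, and YAP1, WWTR1, TEAD1 and TEAD3 cluster near 0.

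Among the coactivators, YAP1 (chromosome 11, 102110447 to 102233424) was at 48.32, 49.11, 48.58 and 48.34 FPKM in the ethanol replicates and at 45.27, 46.11, 44.68 and 43.58 FPKM in the O/A replicates. Every O/A library was lower than every ethanol library, but the difference was small. Its log2(FC) was -0.07 (95% interval -0.12 to -0.02, adjusted p = 0.0249 in edgeR's quasi-likelihood test), and DESeq2 gave an adjusted p of 0.0701. WWTR1 (chromosome 3, 149517235 to 149736714), which encodes TAZ, was at 9.96 ± 0.25 FPKM in ethanol and 9.51 ± 0.333 in O/A (SD, n = 4 each), with overlapping groups. Its log2(FC) was -0.02 with a 95% interval of -0.10 to 0.05. The ratio of YAP1 to WWTR1 in FPKM was 4.88 ± 0.115 in ethanol and 4.73 ± 0.162 in O/A (SD, n = 4 each, exact permutation p = 0.171).

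Of the TEAD factors, TEAD1 (chromosome 11, 12674421 to 12944737) was the most highly expressed, at 20.22, 20.96, 19.33 and 21.21 FPKM in the ethanol replicates and 22.29, 22.21, 21.65 and 22.95 FPKM in the O/A replicates. The O/A libraries were all higher, and the log2(FC) of 0.17 (95% interval 0.11 to 0.23, adjusted p = 2.37e-06, edgeR's quasi-likelihood test) stayed inside the threshold. TEAD3 (chromosome 6, 35473597 to 35497079) was at 9.40 to 10.04 FPKM in ethanol and 9.31 to 10.44 in O/A, and its log2(FC) of 0.09 had a 95% interval of -0.01 to 0.20. The ratio of TEAD1 to TEAD3 was 2.12 ± 0.134 in ethanol and 2.24 ± 0.151 in O/A (SD, n = 4 each, exact permutation p = 0.4). Their paralogs TEAD2 and TEAD4 were less abundant. TEAD4 was at 5.07 to 6.23 FPKM in ethanol and 3.74 to 4.22 in O/A. It fell with a log2(FC) of -0.42 (adjusted p = 5.54e-05, edgeR's quasi-likelihood test), while TEAD2 had a log2(FC) of -0.02. The 4 TEAD genes thus covered a range of log2(FC) from -0.42 for TEAD4 to 0.17 for TEAD1.

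Without the fold threshold, 7 of the 10 genes had an adjusted p of at most 0.05, where 53.7% of all genes tested did. The O/A and ethanol libraries did not overlap in TMM-scaled CPM for 6 of the 10 (YAP1, TEAD1, CCN1, CCN2, LATS2 and AJUBA). This held for 47.6% of all genes tested. TMM-scaled CPM is the count scaled to the library total times a composition factor, 1.012 to 1.022 in ethanol and 0.9821 to 0.9879 in O/A. FPKM carries no such factor, so ratios of FPKM can differ slightly from the log2(FC). For the 6 genes without overlap, the exact permutation test gave its smallest possible value, p = 0.0286, which such a separation fixes in advance. The member counts were near these background shares. CCN1 and CCN2 had the largest falls of the 10 genes under every alternative that was run.

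Ordered by FPKM, which is scaled to gene length, the genes in ethanol ran from CCN1 at 76.0 through YAP1 at 48.6, AJUBA at 37.2, TEAD1 at 20.4, AMOTL2 at 18.6, CCN2 at 15.4, WWTR1 at 9.96, TEAD3 at 9.65 and LATS2 at 7.05 to ANKRD1 at 0.542. The ranges of WWTR1 and TEAD3 overlapped and those of all other neighbours did not. In O/A the order began with YAP1 at 44.9, AJUBA at 30.5 and CCN1 at 23.1, and CCN1 now overlapped TEAD1 at 22.3. CCN2, at 7.47, came to overlap LATS2 at 8.22, and WWTR1 at 9.51 overlapped TEAD3 at 9.96. The summed FPKM of the 6 target genes was 86.8 to 93.4 in O/A and higher in every ethanol library, at up to 162, and CCN1 supplied most of the difference.

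Other genes that YAP and TEAD are known to activate were examined as a list of 17, all of which were tested. In this list 8 fell (18.9% of all genes tested fell), 1 rose (15.8% rose) and 8 did not pass, and the median log2(FC) was -0.22. FJX1, a secreted regulator of Fat and Dachsous signalling, was at 15.52 to 17.62 FPKM in ethanol and 6.58 to 7.29 in O/A, with a log2(FC) of -1.24. TGFB2, a ligand of the TGF-beta family, fell with a log2(FC) of -1.16 and was at 3.18 to 3.88 FPKM in ethanol and 1.27 to 1.71 in O/A. FOXF2, a forkhead transcription factor, fell with a log2(FC) of -1.02. GADD45A, a growth arrest gene that stress pathways also induce, was the single gene that rose, with 59.52 to 65.92 FPKM in ethanol and 100.11 to 108.07 in O/A, with a log2(FC) of 0.75. Among the smaller falls, that of F3, which encodes tissue factor, was picked after its values were seen because it was by far the most abundant gene of the list, at 603.96 to 671.93 FPKM in ethanol and 362.13 to 398.48 in O/A (log2(FC) -0.69).

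Genes of the Hippo pathway that act on YAP, TAZ or TEAD made up a further list of 30, all tested. By the call rule 4 rose and 6 fell, together a share near the 34.7% of all genes tested, and 20 did not pass. The median log2(FC) was 0.13. Without the fold threshold, 25 of the 30 had an adjusted p of at most 0.05, where 53.7% of all genes tested did. Of these 25, 16 were higher in O/A and 9 were lower. No gene of this list passed an absolute log2(FC) of 1. Among the core kinases and adaptors, LATS1, the paralog of LATS2, rose with a log2(FC) of 0.41 (adjusted p = 2.55e-10, edgeR's quasi-likelihood test), with 8.43 to 9.70 FPKM in ethanol and 10.74 to 12.24 in O/A. The other 5 (STK3, STK4, SAV1, MOB1A and MOB1B) lay between 0.04 and 0.16. Both LATS genes were thus higher in O/A.

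By the call rule 3 of 9 upstream activators of LATS fell, where 18.9% of all genes tested fell, and none rose. Inside the threshold, TAOK3 (log2(FC) 0.24), WWC2 (0.23), WWC1 (0.22) and MAP4K4 (0.17) were higher in every O/A library than in any ethanol library. WWC3 (0.07) and TAOK1 (-0.07) had overlapping groups, and the median log2(FC) of the 9 was 0.07. NF2, which encodes merlin, a membrane protein that recruits LATS, was at 12.80 to 12.91 FPKM in ethanol and 7.97 to 8.36 in O/A, with a log2(FC) of -0.60 (adjusted p = 3.61e-20, edgeR's quasi-likelihood test). TAOK2, a kinase upstream of MST and LATS, had a log2(FC) of -0.60, and FRMD6, a FERM-domain protein that acts with merlin, had one of -0.37. In STRIPAK, the phosphatase complex that inhibits MST, 2 of 6 genes rose (15.8% of all genes tested rose), STRN3 with a log2(FC) of 0.33 and SIKE1 with one of 0.29. Of the 4 scaffolds, LIMD1, a relative of AJUBA, fell with a log2(FC) of -0.39, while AMOT (-0.42, at most 0.30 FPKM), WTIP (-0.22) and AMOTL1 (-0.11) did not pass. Among the TEAD cofactors, VGLL4, which competes with YAP for TEAD, fell with a log2(FC) of -0.33, and VGLL1, another TEAD-binding protein, rose with one of 0.28. The genes that restrain YAP therefore included some called as rising (LATS1, LATS2) and some called as falling (NF2, TAOK2, FRMD6, VGLL4). Others moved inside the threshold, such as WWC1, WWC2 and TAOK3 upward and AMOTL1 downward.

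**Figure D3:**
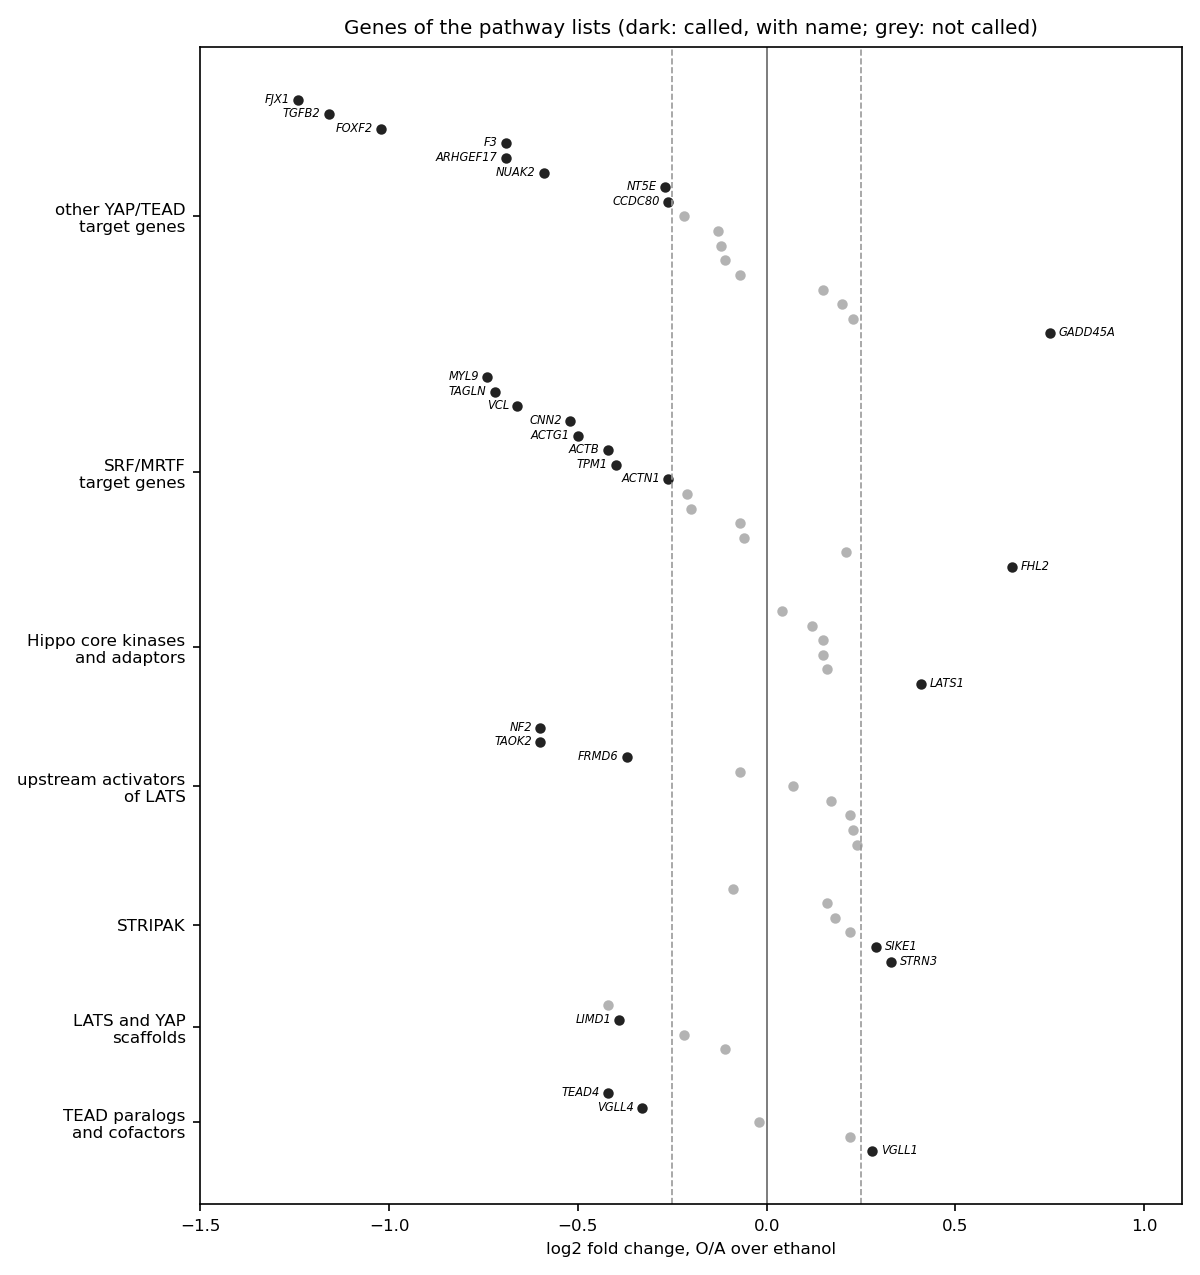
Log2(FC) of O/A over ethanol for each tested gene of the pathway lists, 1 point per gene, grouped by list and sorted within it. Dark points with names passed the call rule, grey points did not, and dashed lines mark 0.25 on either side of 0. The called points of the target lists lie mostly to the left, with GADD45A and FHL2 to the right, and those of the Hippo lists lie on both sides and nearer to 0.

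CCN1 and CCN2 are also targets of SRF with its actin-sensing coactivators, the MRTFs, so a list of 15 SRF and MRTF target genes was set beside the YAP targets. The CArG box, the motif that SRF binds, was in 0 of the 11 promoter windows of the members, that of CCN2 included. CCN1 had no window, so its promoter was not examined, and SRF control of either gene was not tested. It was in 7 of 12 SRF and MRTF targets with a window, using any listed start (58.3%), and in 1.16% of all promoters. Of the 14 that could be tested (CNN1 had at most 3 reads per library), 8 fell (18.9% of all genes tested fell), 1 rose (15.8% rose) and 5 did not pass, with a median log2(FC) of -0.33. MYL9, a myosin light chain, was at 1.92 to 2.39 FPKM in ethanol and 1.04 to 1.43 in O/A, with a log2(FC) of -0.74. TAGLN, an actin-binding protein, fell with a log2(FC) of -0.72 and VCL, which encodes vinculin, with one of -0.66. FHL2, a LIM-domain cofactor, was the gene that rose, with 11.98 to 12.92 FPKM in ethanol and 18.47 to 19.31 in O/A (log2(FC) 0.65). Both target lists thus held 8 genes that fell and 1 that rose, and the difference between the lists was not tested.

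Of the 13 paralogs of the members, 8 could be tested, and these are TEAD2, TEAD4, LATS1, AMOT, AMOTL1, LIMD1 and WTIP, given above, and ANKRD2. ANKRD2, the relative of ANKRD1 in muscle, had 7 to 24 reads per library and a log2(FC) of -0.05. CCN3, CCN4, CCN5 and CCN6, the other genes of the CCN family, held at most 2 reads in any library, and ANKRD23 held at most 7. Among the CCN and ANKRD genes examined, the measured changes were therefore those of CCN1, CCN2 and ANKRD1.

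The genes whose pattern over the 8 libraries was most like that of CCN1, by Pearson correlation of TMM-scaled log2 CPM, were THBS1 (r = 0.9985), TGOLN2, BCOR, NOP56 and PLK2, with log2(FC) values from -1.57 for BCOR to -0.30 for TGOLN2. For CCN2 they were FAM111B (r = 0.9982), VCL, MARCHF4, ARHGAP11A and RTKN, of which VCL is also in the SRF and MRTF list. For YAP1 they were DTX3L (r = 0.9825), RPS6KC1, ZNF416, SP110 and PREP. These correlations mostly follow the gap between the conditions that the libraries share, and 1387 genes passed r of 0.95 with CCN1, 1360 with CCN2 and 45 with YAP1.

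The values of CCN1 and CCN2 moved little with the processing. Over 16 alternatives, which included another test, other scalings and filters, FPKM in place of counts, and the omission of single libraries, the log2(FC) of CCN1 lay between -1.73 and -1.64 and that of CCN2 between -1.03 and -0.95. For ANKRD1 it lay between 0.30 and 0.95 over the 15 alternatives that gave a value.

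**Figure D4:**
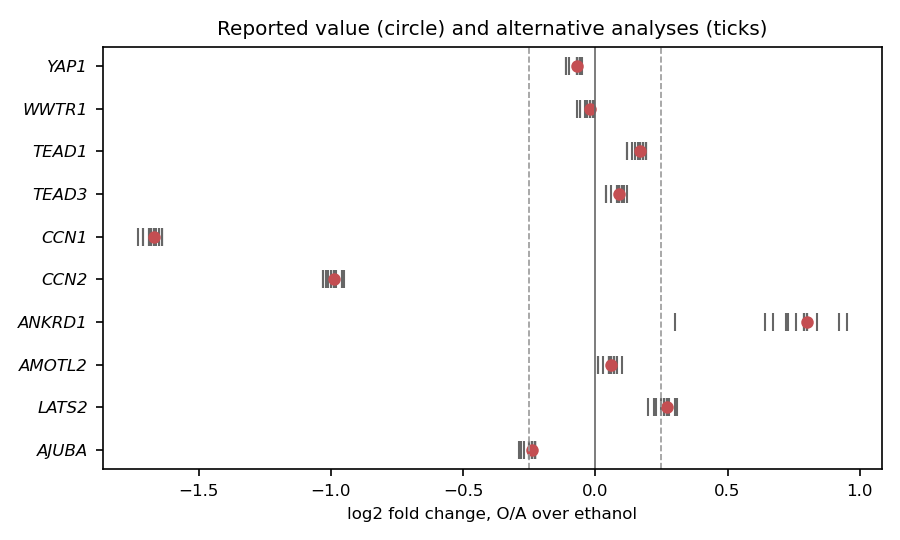
Log2(FC) of O/A over ethanol for the 10 genes under the reported analysis (circles) and under each alternative that gave a value (ticks), with dashed lines at 0.25 on either side of 0. The ticks of CCN1 stay between -1.73 and -1.64 and those of CCN2 between -1.03 and -0.95, those of ANKRD1 spread from 0.30 to 0.95, and those of LATS2 and AJUBA lie across the threshold.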

How the data were processed

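mRNA selected with oligo(dT) was sequenced as paired-end reads from 8 libraries of N/TERT-1 cells, with 4 independent experiments per condition. Condition and replicate were taken from the sample labels, which give neither dose nor time. The time of 4 hours was taken from the figure legend for the mRNA-seq data. Other legends define O/A as 10 µM oligomycin with 4 µM antimycin A, and the dose used for mRNA-seq is not given separately. Per the submitters' processing notes, the authors aligned reads to GRCh38.p13 with HISAT2 2.0.1 and obtained counts per gene with HTSeq 0.6.1, and the deposited counts are not normalized. The strand setting and the Ensembl release are not given in the sources used here. The deposited FPKM values lay within 0.005 of the count divided by gene size and library total. A deposited table of the authors' DESeq2 comparison, with fold changes and p-values, was not used.

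The filter kept genes with 10 or more counts in 4 or more libraries (14893 of 61806), which were tested with edgeR 4.0.16 in R 4.3.3, using TMM scaling and its quasi-likelihood test (robust option), without a block. P-values were adjusted by Benjamini-Hochberg over all genes tested, and a gene was called with an adjusted p of at most 0.05 and an absolute log2(FC) above 0.25. Standard errors and 95% intervals came from the quasi-likelihood F statistic. Replicates of a condition differed by more than sampling noise in all 12 pairs, so none was counted as a copy. Depth was 17210404 to 20999927 counts per library, so the values of ANKRD1, with 15 to 36 reads, are imprecise. Single values were compared by a 2-sided exact permutation test of 4 libraries against 4.

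The members and lists were chosen with earlier results of these data known. Named are the members, their paralogs, the 3 called genes of each list with the largest rise and the 3 with the largest fall, and the 5 genes most correlated with CCN1, CCN2 and YAP1. Also named, outside this rule, are markers, flagged genes, F3, and the uncalled core kinases, adaptors and upstream activators of LATS. CNN1, CALD1 and ACTN1 are named for their reads or listed starts. Alternatives were DESeq2 1.42.0, median-ratio and upper-quartile scaling, no filter, a 50-count filter, limma 3.58.1 on log2(FPKM + 0.1) and log2(FPKM + 1), a replicate block, other fold thresholds and omission of each library. The edgeR fit without a block, DESeq2 and limma on log2(FPKM + 0.1) were first run on simulated data. The permutation test was not. Promoter sequences are from RefSeq (GRCh38.p14, found for 8 of the 10 members), and motifs were searched on both strands.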

Additional observations from a re-analysis of the deposited data

Results flagged for a closer look

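The 93 genes checked (the tested genes of all lists and the genes correlated with CCN1, CCN2 or YAP1) were examined within each condition for a single library far from the other 3. Of 186 such groups, 8 held one, where chance gives about 1 in 20 (9.3 expected). Values are TMM-scaled CPM. Among the members, WWTR1 was at 84.95 in O/A replicate 1 and at 79.25 to 79.64 in the other O/A libraries. In ethanol, FRMD6 was at 274.5 in replicate 3 (the others 260.4 to 261.9), STK4 at 115.6 in replicate 2 (118.6 to 119.1), ARHGEF17, a called YAP target, at 22.57 in replicate 4 (19.54 to 19.8) and the melanocyte marker PMEL at 2.299 in replicate 2 (1.185 to 1.363). In O/A, CNN2, a called SRF target, was at 201.6 in replicate 2 (213.6 to 216.0), ANKRD2 at 0.4023 in replicate 4 (1.218 to 1.38) and ZNF416 at 4.712 in replicate 4 (5.823 to 6.039). The values of ANKRD2 rest on 7 to 24 reads per library.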

How the results depend on the processing

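No log2(FC) of a member changed sign under any of the alternatives that gave one. With no fold threshold 7999 of all genes tested passed (3868 up, 4131 down). Among them were 7 members (3 up, 4 down) and 25 Hippo genes (16 up, 9 down). The other YAP and TEAD targets among them numbered 15 (4 up, 11 down). Above an absolute log2(FC) of 1, 797 of all genes passed (382 up, 415 down), with 1 member (CCN1), 3 other targets, 0 Hippo genes and 0 SRF and MRTF targets. Leaving out each library in turn gave 4945 to 5071 calls among all genes, 3 to 4 among the members, 8 to 10 among the other targets, 10 to 13 among the Hippo genes and 8 to 9 among the SRF and MRTF targets. LATS2 was the member that lost its call, without O/A replicate 4. With 50 counts required, ANKRD1 was not tested. DESeq2 called 4767 of all genes and 4 members. No scaling moved the median log2(FC) of all genes by more than 0.1.

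Same-numbered libraries did not deviate together (correlations 0.0377, -0.00223, -0.0208 and 0.0644 for replicates 1 to 4), so no shared replicate effect was seen. Whether same-numbered libraries came from the same experiment is not given in the labels. With the replicate number added as a block, 5160 genes were called, of which 5117 were shared with the 5165 called without it, and the calls were 4 for the members, 9 for the other targets, 10 for the Hippo genes and 9 for the SRF and MRTF targets.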
